A study of Caenorhabditis elegans with 16 samples.

Results

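In Caenorhabditis elegans, 5 pairs of neighbouring genes were examined, 10 of the 24654 genes counted: dcs-1/fre-1, hrpf-1/fnci-1, set-14/vps-11, dhs-1/cln-3.2 and prmt-1/mdt-17, each written as upstream gene/downstream gene. The pairs were chosen because the downstream gene was lower with a CDK-12 inhibitor in fed cdk12-as larvae while the upstream gene fell much less or not at all, so the fed cdk12-as libraries with and without inhibitor fixed that pattern. For the 10 genes and their pairs, values that rest on those libraries are given as a description, without a test. The choice had no numerical threshold. All 10 genes passed the filter on low counts, which 15845 genes passed.

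RNA depleted of ribosomal RNA was sequenced from whole first-stage (L1) larvae of the wild-type strain N2 and of cdk12-as, whose CDK-12 kinase is an analog-sensitive form that the bulky compound 3MB-PP1 can block. In both strains, embryos obtained by bleaching hatched at 20 °C in S-Medium lacking food and stayed there for at least 12 h, which arrests larvae at the L1 stage. Larvae were collected at the start, after 4 h of further starvation with DMSO, after 4 h with OP50 bacteria as food and DMSO, or after 4 h with OP50 and 1 µM 3MB-PP1, with 2 libraries in each of the 8 groups. No label says that the libraries of a group came from separate cultures, so a p-value here reflects only how these libraries varied, possibly for technical reasons.

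CDK-12 acts with cyclin K and phosphorylates the C-terminal repeat domain of RNA polymerase II, mostly at serines of elongating polymerase. Many C. elegans genes lie close together on one strand, and some such clusters are operons: one promoter gives a joined transcript that is cut into separate mRNAs by 3′ end formation of the upstream gene and trans-splicing of a spliced leader, usually SL2, onto the downstream mRNA. No operon annotation and no spliced-leader counts were used here, so whether the 5 pairs are operons was not tested.

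Gene counts summed to 18588196 to 56644943 per library, and 20.3 to 50.7% of them fell on rrn-2.1, a ribosomal RNA gene. The 10 genes had 75 to 23163 counts each per library. Markers of adult tissue were near 0, with summed levels of 0.478 to 1.8 CPM (counts scaled to library size) for 4 yolk protein genes and 0.223 to 0.878 CPM for 5 sperm genes, whereas markers of intestine, body wall muscle, epidermis, neurons and pharynx were present in every library. In whole larvae, fewer cells of a type and less RNA per cell cannot be told apart. The mRNA of cdk-12 itself was measured at 31.6 and 35.9 CPM in fed cdk12-as larvae with inhibitor and at 41.9 and 45.4 CPM without it. That log2 change of -0.37 ± 0.15 (SE) did not pass the edgeR quasi-likelihood test (adjusted p = 0.169). Against fed wild type with inhibitor, at 40.5 and 52.7 CPM, the log2 difference of -0.46 ± 0.15 (SE) did pass (adjusted p = 0.028, edgeR). The inhibitor acts on the kinase and the strain carries an altered protein, so this mRNA level does not check the strain label.

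The 10 genes lie on the minus strand of chromosomes I, II and V (coordinates on ce10). The gene dcs-1 (V, 20087872 to 20090711) encodes the scavenger decapping enzyme, which hydrolyses the cap left over when an mRNA is degraded from its 3′ end, and fre-1 (V, 20075994 to 20087692) starts 179 bases beyond it. The gene hrpf-1 (I, 6753383 to 6756347), a homolog of the RNA-binding protein hnRNP F, is followed after 365 bases by fnci-1 (I, 6746333 to 6753017), the homolog of the DNA crosslink repair protein FANCI. The SET domain gene set-14 (II, 10793775 to 10796229) is followed after 341 bases by vps-11 (II, 10788346 to 10793433), a shared subunit of the HOPS and CORVET complexes that tether membranes on the way to the lysosome. The short-chain dehydrogenase gene dhs-1 (I, 5279055 to 5281519) is followed after 353 bases by cln-3.2 (I, 5274773 to 5278701), a homolog of the human lysosomal protein CLN3. The protein arginine methyltransferase gene prmt-1 (V, 20267570 to 20269673) is followed after 371 bases by mdt-17 (V, 20251938 to 20267198), a subunit of the Mediator complex that links transcription factors to RNA polymerase II.

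No other annotated gene lay between the genes of a pair or overlapped any of the 10. The downstream gene had the longer span in 5 of 5 pairs, against 51.5% of the 5857 same-strand neighbouring pairs of tested genes with a gap of at most 2000 bases. That share was 62% with gaps up to 200 bases and 51.3% with gaps over 200 and up to 500 bases. The choice did not use span itself, but across all pairs span went with the change that it used (given below). Whether the longer downstream genes are a trait apart from that change was not tested. Upstream genes spanned 2104 to 2965 bases with 3 to 8 exons, and downstream genes 3929 to 15261 bases with 7 to 15 exons. The map of exons shows that much of the extra span of fre-1 and mdt-17 is intron.

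**Figure D1:**
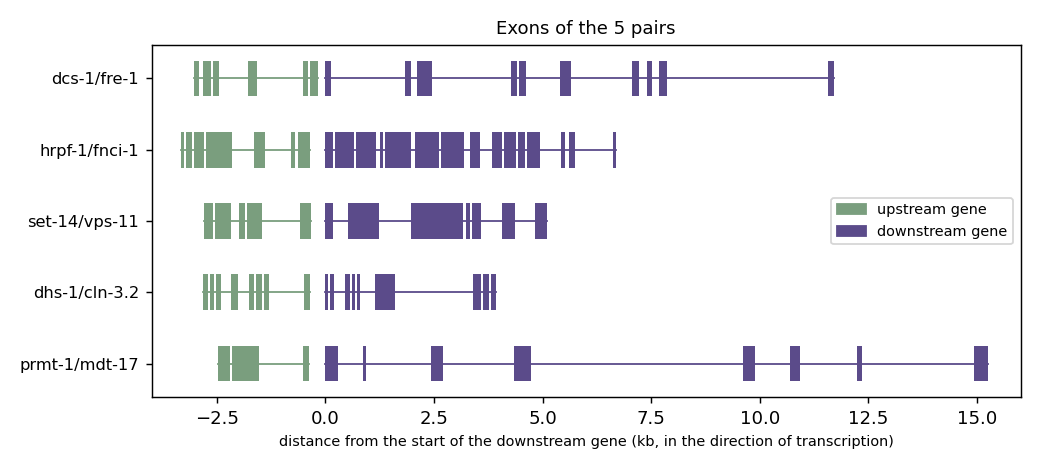
Exons (boxes) of the upstream and downstream gene of each pair, drawn to scale against the distance in kb from the start of the downstream gene in the direction of transcription. The gaps are 179 to 371 bases wide, and each downstream gene (3929 to 15261 bases) is longer than its upstream partner (2104 to 2965 bases).

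In fed cdk12-as larvae with inhibitor the downstream genes were at 23.8 to 35.8% of their level without it, while the upstream genes were at 80.5 to 107%. The median log2 change was -1.5 over the 5 downstream and 0.04 over the 5 upstream genes, and 0.06 over all genes tested. In this contrast 12.1% of all tested genes were called, 3.77% as higher and 8.37% as lower with inhibitor, where a gene is called at a Benjamini-Hochberg adjusted p under 0.05. The pairs were chosen on this contrast, so the background share is given only for scale.

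The downstream gene fre-1 measured 25 and 23.6 CPM in fed wild type, 28.5 and 24.2 CPM in fed wild type with inhibitor, 17.5 and 16.4 CPM in fed cdk12-as, and 3.68 and 4.33 CPM in fed cdk12-as with inhibitor. Before feeding it stood at 20.4 to 22.3 CPM in the 4 starting and starved wild-type libraries and at 15.6 to 19.6 CPM in those of cdk12-as. The treated cdk12-as libraries were the lowest of all 16, and no other group came near them. The log2 change with inhibitor in cdk12-as was -2.07 ± 0.12 (SE). Its upstream neighbour dcs-1 measured 17.4 and 16.1 CPM in fed cdk12-as and 14.6 and 13.5 CPM with inhibitor, a log2 change of -0.26 ± 0.09 (SE). The treated libraries of dcs-1 also lay below the untreated ones, but within the range of the other libraries of both strains, 9.9 to 22.9 CPM.

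In the second pair the upstream gene stayed near its untreated level. The RNA-binding protein gene hrpf-1 measured 25.5 and 26.2 CPM in fed cdk12-as and 26.9 and 28.2 CPM with inhibitor, a log2 change of 0.09 ± 0.09 (SE). Downstream, fnci-1 measured 59.5 and 55.2 CPM in fed wild type, 64.3 and 54.6 CPM in fed wild type with inhibitor, 38.5 and 37.7 CPM in fed cdk12-as and 13.4 in both treated cdk12-as libraries. The log2 change of fnci-1 in cdk12-as was -1.5 ± 0.1 (SE). Its treated level was below that of every other library, the lowest of which was 27.8 CPM in starved cdk12-as.

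The membrane tethering gene vps-11 was the steadiest downstream gene outside the treated cdk12-as larvae. It ranged from 38.6 to 48.7 CPM over the other libraries of both strains, fed or not, and measured 14.9 and 15.6 CPM in the treated cdk12-as libraries. The log2 change against 42.3 and 43.0 CPM in fed cdk12-as was -1.48 ± 0.08 (SE). Upstream, set-14 measured 9.9 and 9.92 CPM in fed cdk12-as and 8.18 and 7.77 CPM with inhibitor, a log2 change of -0.31 ± 0.1 (SE). This was the most negative change among the 5 upstream genes, and its treated libraries were the lowest of all 16.

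The CLN3 homolog cln-3.2 was the least abundant of the downstream genes in fed larvae. It measured 8.87 and 10.4 CPM in fed wild type, 10.5 and 10.1 CPM in fed wild type with inhibitor, 9.72 and 9.65 CPM in fed cdk12-as and 3.25 and 3.56 CPM in treated cdk12-as, a log2 change in cdk12-as of -1.5 ± 0.14 (SE). All other libraries lay between 8.57 and 11.2 CPM. Its upstream neighbour dhs-1 measured 14.6 and 14.7 CPM in fed cdk12-as and 16.1 and 15.1 CPM with inhibitor, a log2 change of 0.09 ± 0.09 (SE).

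In the pair with the largest difference in level, prmt-1 measured 322 and 391 CPM in fed cdk12-as and 330 and 405 CPM with inhibitor, a log2 change of 0.04 ± 0.17 (SE). The groups overlapped, and in each of the 8 groups the library numbered 2 was above the library numbered 1, which goes with the wider error of prmt-1. The share of counts taken by rrn-2.1 was lower in the library numbered 2 than in that numbered 1 in every group, and its part in the prmt-1 values was not tested. Downstream, mdt-17 measured 90.8 and 83.0 CPM in fed wild type, 95.6 and 81.6 CPM in fed wild type with inhibitor, 47.5 and 47.6 CPM in fed cdk12-as and 14 and 15.8 CPM in treated cdk12-as. The log2 change of mdt-17 in cdk12-as was -1.67 ± 0.09 (SE), which took it below its level in arrested larvae, 24.1 to 26.9 CPM in cdk12-as.

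**Figure D2:**
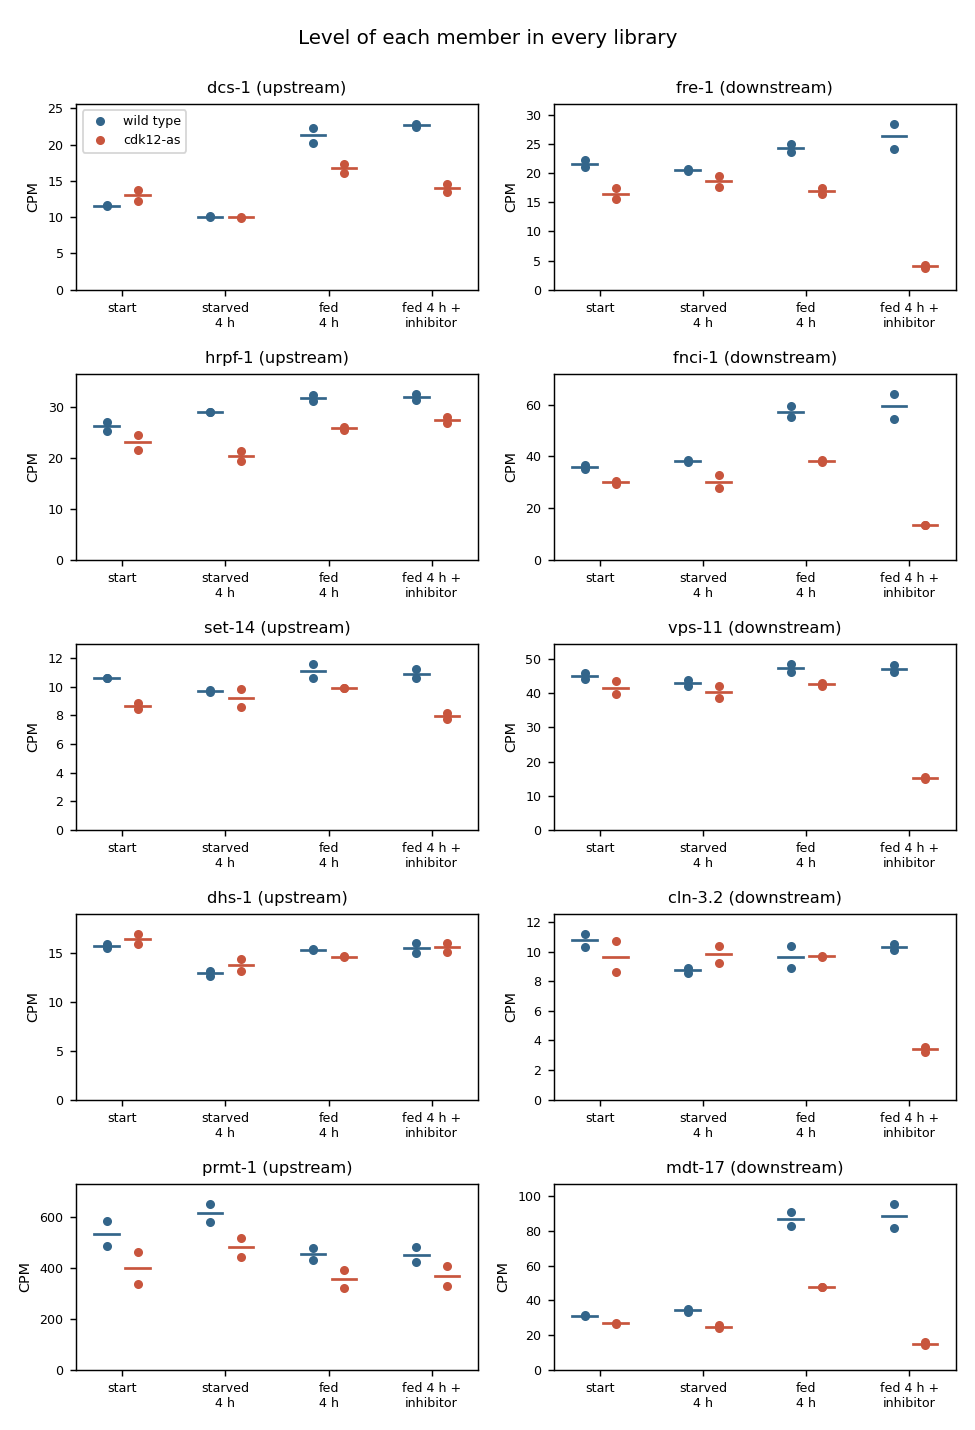
Level in CPM (linear axes from 0, one per gene) of the 10 genes in every library, with points for single libraries, bars for group means, upstream genes on the left and downstream genes on the right. For every downstream gene the treated cdk12-as libraries lie below all others (3.68 and 4.33 CPM for fre-1), whereas the upstream genes keep 80.5 to 107% of the fed cdk12-as level. The pairs were chosen on the fed cdk12-as libraries with and without inhibitor.

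Levels of different genes were compared per kilobase of exon, using the exon lengths of the second deposited table, which are multiples of 3 in 86.6% of tested genes and 9 of the 10. How much untranslated sequence these models hold was not tested. In fed wild type, prmt-1 stood at 435 ± 31.8 CPM per kb (SD, n = 2) and mdt-17 at 43.4 ± 2.78. The other pairs were closer, with dcs-1 at 22.8 ± 1.57 and fre-1 at 13.8 ± 0.567 CPM per kb (SD, n = 2), and hrpf-1 at 19.3 ± 0.513 and fnci-1 at 13.3 ± 0.706. The order was the reverse in one pair, where the downstream vps-11 stood at 16.1 ± 0.572 CPM per kb (SD, n = 2) and the upstream set-14 at 8.59 ± 0.55. The upstream dhs-1 stood at 15.8 ± 0.0672 CPM per kb and cln-3.2 at 7.35 ± 0.805 (SD, n = 2). In treated cdk12-as larvae vps-11 was at 5.18 ± 0.151 CPM per kb, below set-14 at 6.19 ± 0.225 (SD, n = 2).

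The balance within a pair was followed as the log2 ratio of the downstream to the upstream CPM in each library. With inhibitor in fed cdk12-as this ratio changed by -1.82 ± 0.16 (SE) for dcs-1/fre-1, -1.72 ± 0.2 for prmt-1/mdt-17, -1.59 ± 0.14 for hrpf-1/fnci-1, -1.58 ± 0.16 for dhs-1/cln-3.2 and -1.17 ± 0.14 for set-14/vps-11. Between libraries numbered 1 the changes ran from -1.97 to -1.22, and between those numbered 2 from -1.66 to -1.11. The order of the first 4 pairs lies within these errors, and set-14/vps-11 had the smallest change at either number. Over all 5857 neighbouring pairs the median change was -0.14, with quartiles of -0.53 and 0.22. Across all pairs 19.2% were called in this contrast. The 5 pairs were chosen for this change, so nothing is read from where they lie among all pairs.

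**Figure D3:**
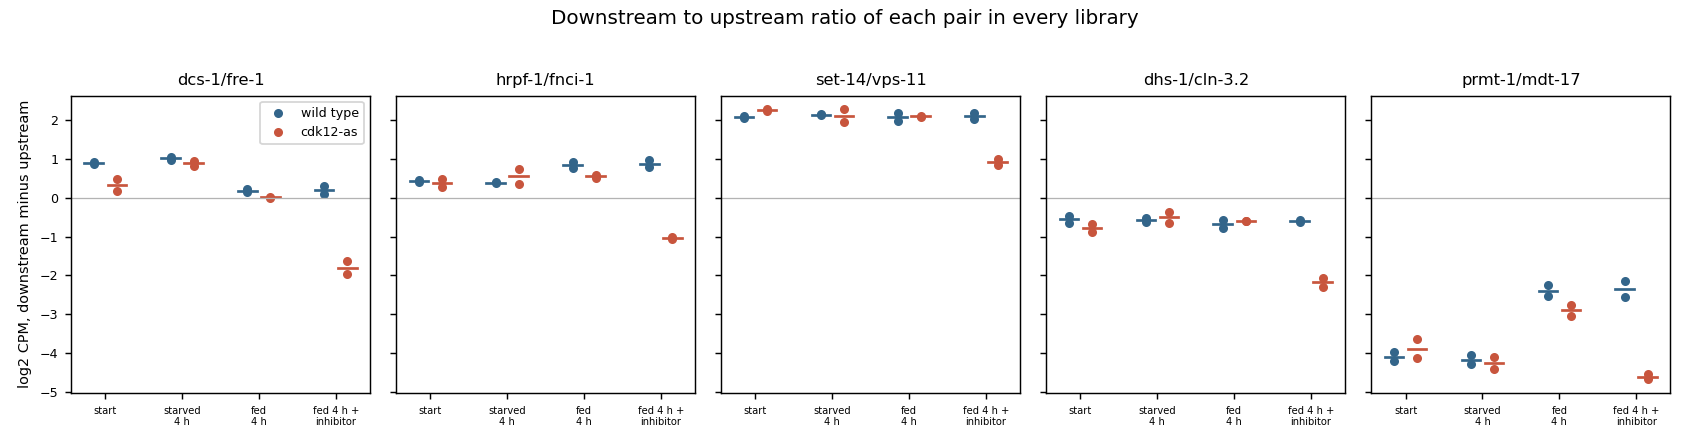
Log2 ratio of downstream to upstream CPM of each pair in every library, with points for libraries and bars for group means. The treated cdk12-as libraries are the lowest in each panel, at -1.97 and -1.63 for dcs-1/fre-1, -4.55 and -4.68 for prmt-1/mdt-17 and 0.86 and 1.00 for set-14/vps-11, and food moves the ratio of prmt-1/mdt-17 upward and that of dcs-1/fre-1 downward in both strains.

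Gap and length of the pairs went with the size of this change across the genome. The median change was -0.33 over 468 pairs with gaps up to 200 bases, -0.27 over 1715 pairs with gaps over 200 and up to 500 bases, -0.12 with gaps over 500 and up to 1000 bases and 0 with gaps over 1000 and up to 2000 bases. Among gaps over 200 and up to 500 bases, which 4 of the 5 pairs have, the median was -0.38 over 880 pairs whose downstream gene was the longer and -0.14 over 835 other pairs. With gaps up to 200 bases, the class of dcs-1/fre-1, the medians were -0.49 over 290 pairs and -0.19 over 178 pairs. In wild type the medians of these classes lay between -0.01 and 0.02. In cdk12-as the pairs with the longer downstream gene had median log2 changes of 0.24 upstream and -0.15 downstream with gaps up to 200 bases. With gaps over 200 and up to 500 bases the medians were 0.15 and -0.17. The median over all genes tested was 0.06, and the part of upstream genes in the background change was not tested. Over the 5 pairs the upstream and downstream medians were 0.04 and -1.5. Single genes showed a related gradient in cdk12-as, from a median log2 change of 0.2 for spans up to 1000 bases to -0.1 for spans of 8001 to 16000 bases. The part of gap and length in the values of the 5 pairs was not tested.

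**Figure D4:**
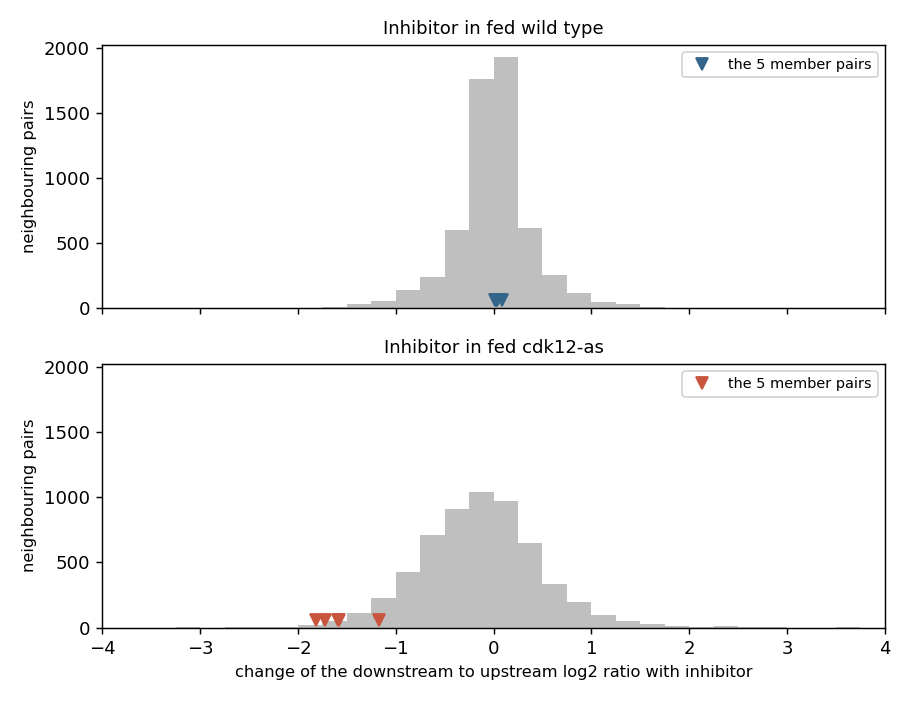
Change of the downstream to upstream log2 ratio with inhibitor in fed larvae, as counts of neighbouring pairs in bins of 0.25 (grey bars) with the 5 pairs as triangles, in wild type (top) and cdk12-as (bottom). The 5 pairs lie between 0.01 and 0.09 in wild type and between -1.82 and -1.17 in cdk12-as, where all pairs have a median of -0.14.

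Fed wild-type larvae with and without 3MB-PP1 serve as the control for the compound, because their CDK-12 is not analog-sensitive, and none of these libraries chose the pairs. Here 0 of the 10 genes were called by edgeR, against 0% of all genes tested. DESeq2 called 0 of the 10 and 3 genes in all, and at an unadjusted p under 0.05 edgeR gave 0 of the 10 and 305 of 15845 genes. Log2 changes ran from -0.02 for set-14 to 0.12 for fre-1. The 95% confidence intervals of the 10 genes together reached from -0.39 to 0.39, and among the downstream genes they were -0.12 to 0.35 for fre-1, -0.15 to 0.26 for fnci-1, -0.17 to 0.16 for vps-11, -0.19 to 0.39 for cln-3.2 and -0.17 to 0.22 for mdt-17. The downstream to upstream ratio was called in 0 of 5 pairs, with changes of 0.01 to 0.09, and in 0% of all pairs.

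**Figure D5:**
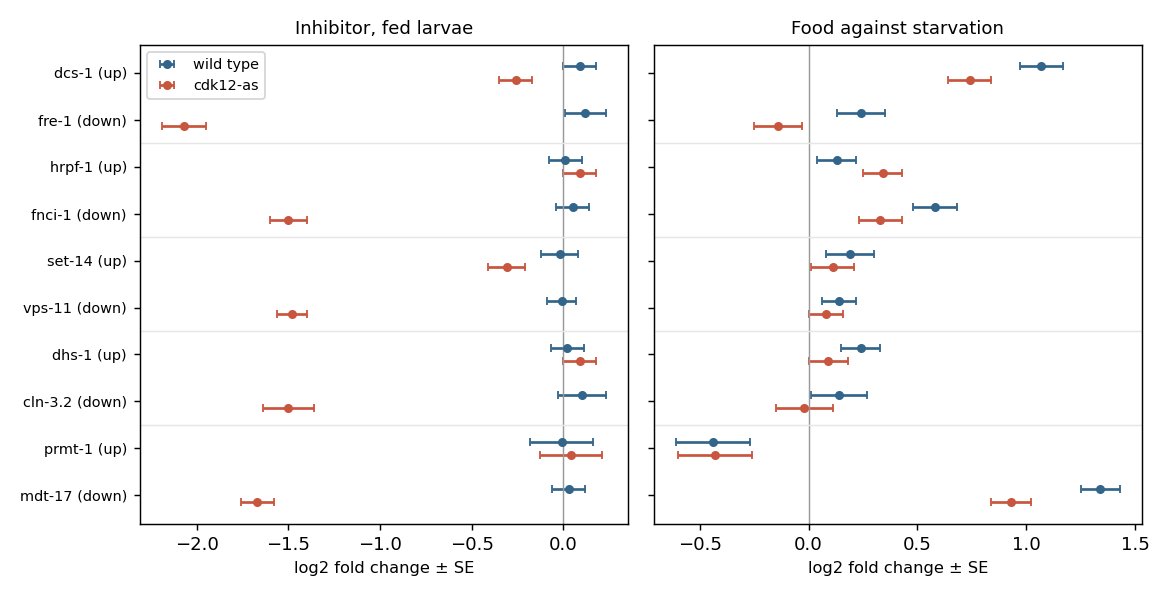
Log2 fold change of the 10 genes with its standard error, for the inhibitor in fed larvae (left) and for food against starvation (right), in wild type and cdk12-as. With inhibitor, the downstream genes lie between -2.07 and -1.48 in cdk12-as and between -0.01 and 0.12 in wild type, and with food, mdt-17 and dcs-1 are higher in both strains.

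Food raised members of both positions in wild-type larvae. Against 4 h of starvation, 4 of the 10 genes rose and 0 fell (edgeR quasi-likelihood test), of which dhs-1 was lost and a fall of prmt-1 gained under several other settings given with those genes, while 24.4% of all genes rose and 46.0% were called in either direction, so the members' share was close to that of the background. Mediator subunit gene mdt-17 rose from 35.1 and 33.3 CPM to 90.8 and 83.0 CPM, a log2 change of 1.34 ± 0.09 (SE; adjusted p = 2.0e-07, edgeR). Decapping gene dcs-1 rose from 10.0 and 10.2 CPM to 22.3 and 20.3 CPM, by 1.07 ± 0.1 (SE; adjusted p = 1.78e-06, edgeR). Repair gene fnci-1 rose from 37.9 and 38.6 CPM to 59.5 and 55.2 CPM, by 0.58 ± 0.1 (SE; adjusted p = 0.000258, edgeR). These 3 genes had no overlap between fed and starved libraries. This adds no support to their calls, since the share of all genes without overlap was not counted.

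The remaining food response was small. Dehydrogenase gene dhs-1 rose from 13.2 and 12.7 CPM to 15.3 and 15.4 CPM, by 0.24 ± 0.09 (SE; adjusted p = 0.0394, edgeR). This call was lost without either wild-type starting, starved or fed library, either fed cdk12-as library or the first starting cdk12-as library (adjusted p = 0.0502 to 0.174). It was also lost with DESeq2 (adjusted p = 0.14), DESeq2 size factors (0.057), no filter on low counts (0.167) and a fit of the contrast's libraries alone (0.0945), and the sign turned with scaling to total counts (-0.12) or to totals without rrn-2.1 (-0.01). With total counts fnci-1 stood at 0.21 (adjusted p = 0.489) and the median of all genes moved by -0.37. The methyltransferase gene prmt-1 had a log2 change of -0.44 ± 0.17 (SE; adjusted p = 0.0561, edgeR). It passed with DESeq2 size factors, DESeq2, totals without rrn-2.1, no filter and the contrast's libraries alone (-0.69 to -0.45; adjusted p = 0.00143 to 0.0474), but not with total counts (-0.80; adjusted p = 0.114). It also passed without the first wild-type library fed with inhibitor or either starting cdk12-as library, and its adjusted p over all libraries left out ran from 0.0343 to 0.247. The genes fre-1, hrpf-1, set-14, vps-11 and cln-3.2 had changes of 0.13 to 0.24 that did not pass.

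Wild-type larvae fed with inhibitor, set against the same starved libraries, gave similar values. Here 5 of the 10 genes rose and 1 fell, against 26.1% and 22.2% of all genes and 48.4% in either direction. The log2 changes were 1.37 ± 0.09 (SE) for mdt-17, 1.16 ± 0.1 for dcs-1 and 0.64 ± 0.1 for fnci-1, with adjusted p of 1.56e-07, 7.86e-07 and 0.000119 (edgeR). The gene fre-1 rose by 0.36 ± 0.11 (SE; adjusted p = 0.0166), dhs-1 rose by 0.26 ± 0.09 (SE; adjusted p = 0.0269) and prmt-1 fell by 0.45 ± 0.17 (SE; adjusted p = 0.0476; all edgeR). Leaving out either starved library or the first library fed with inhibitor left 3 genes called, dcs-1, fnci-1 and mdt-17 (adjusted p without them 0.0611 to 0.136 for fre-1 and 0.0668 to 0.13 for dhs-1). The prmt-1 call was also lost without either fed wild-type library, the second starting wild-type library, the second wild-type library fed with inhibitor, the first treated cdk12-as library, or the second starved or fed cdk12-as library (adjusted p up to 0.228). With total counts 2 genes were called, dcs-1 and mdt-17, and the sign turned for fre-1 (-0.08) and dhs-1 (-0.17). Over all genes tested, total counts lowered the calls from 7662 to 5492. The dhs-1 call was also lost with DESeq2 size factors, DESeq2, no filter, the contrast's libraries alone and totals without rrn-2.1 (adjusted p = 0.0558 to 0.868), the fre-1 call with the contrast's libraries alone (0.0628) and totals without rrn-2.1 (0.466), and the prmt-1 call with no filter (0.0596).

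Food changed the balance within 3 of the 5 pairs in wild type, against 41.2% of all neighbouring pairs. The log2 ratio of mdt-17 to prmt-1 rose from -4.05 and -4.29 in starved to -2.25 and -2.53 in fed larvae, a change of 1.78 ± 0.2 (SE; adjusted p = 1.45e-05, limma). That of fnci-1 to hrpf-1 rose from 0.38 and 0.41 to 0.93 and 0.77, by 0.46 ± 0.14 (SE; adjusted p = 0.0206, limma), a call that was lost without either starved wild-type library or the first fed one (adjusted p = 0.0782 to 0.136). In the pair dcs-1/fre-1 the upstream gene gained on the downstream one, and the ratio fell from 1.05 and 0.99 to 0.16 and 0.22, a change of -0.83 ± 0.16 (SE; adjusted p = 0.001, limma). For set-14/vps-11 and dhs-1/cln-3.2 the changes were -0.05 ± 0.14 and -0.11 ± 0.16 (SE; adjusted p = 0.823 and 0.628, limma). Food with inhibitor, against the same starved libraries, gave 3 of 5 pairs called beside 41.3% of all pairs, with changes of 1.82, 0.49 and -0.81 in the same order, and the hrpf-1/fnci-1 call was lost without either starved library or the first library fed with inhibitor (adjusted p = 0.0597 to 0.102).

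The food contrasts of cdk12-as use libraries that chose the pairs and are described without a test, beside 27.7% of all genes called without inhibitor and 34.1% with it. Without inhibitor the log2 changes against starvation were 0.93 ± 0.09 (SE) for mdt-17, 0.74 ± 0.1 for dcs-1, 0.34 ± 0.09 for hrpf-1, 0.33 ± 0.1 for fnci-1 and -0.43 ± 0.17 for prmt-1, and the other 5 genes lay between -0.14 and 0.11. With inhibitor, the 5 downstream genes were below their starved levels, at -2.21 ± 0.12 (SE) for fre-1, -1.52 ± 0.14 for cln-3.2, -1.4 ± 0.08 for vps-11, -1.18 ± 0.1 for fnci-1 and -0.74 ± 0.09 for mdt-17. The upstream genes were mixed, at 0.49 ± 0.1 (SE) for dcs-1, 0.43 ± 0.09 for hrpf-1, 0.18 ± 0.09 for dhs-1, -0.21 ± 0.11 for set-14 and -0.38 ± 0.17 for prmt-1. The fed groups of the strains also stood apart without inhibitor. Of the wild-type level, mdt-17 was at 54.7%, fnci-1 at 66.4%, fre-1 at 69.6%, vps-11 at 89.8% and cln-3.2 at 101%. The upstream genes were at 78.3% for prmt-1, 78.7% for dcs-1, 81.3% for hrpf-1, 89.5% for set-14 and 95.5% for dhs-1. The median log2 difference over all genes tested was -0.06.

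The strains were also compared as arrested larvae, whose libraries did not choose the pairs. At the start, fre-1 was at 16.5 ± 1.27 CPM (SD, n = 2) in cdk12-as and 21.6 ± 0.863 CPM in wild type, a log2 difference of -0.39 ± 0.11 (SE; adjusted p = 0.0215, edgeR). It was the 1 of 10 genes called, against 24.4% of all genes in either direction (11.6% lower and 12.8% higher in cdk12-as), and the call was lost without either wild-type starting library or the first of cdk12-as (adjusted p = 0.068 to 0.146). There were 2 calls when another library was left out: fnci-1 and fre-1 without the second wild-type library fed with inhibitor, and fre-1 and prmt-1 without the second starting cdk12-as library. The ratio of fre-1 to dcs-1 was lower in cdk12-as, with a log2 difference of -0.55 ± 0.16 (SE; adjusted p = 0.0344, limma), in 1 of 5 pairs against 14.2% of all pairs. That call was lost without either starting or either starved wild-type library or the first starting cdk12-as library (adjusted p = 0.0514 to 0.292).

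After 4 h of starvation, 3 of the 10 genes were lower in cdk12-as and 0 higher, against 8.28% and 9.80% of all genes and 18.1% in either direction. The gene hrpf-1 measured 19.5 and 21.5 CPM in cdk12-as and 29.1 CPM in both wild-type libraries, a log2 difference of -0.51 ± 0.09 (SE; adjusted p = 0.00166, edgeR). Its neighbour fnci-1 measured 32.7 and 27.8 CPM against 37.9 and 38.6 CPM, a difference of -0.34 ± 0.1 (SE; adjusted p = 0.0291, edgeR). For mdt-17 the values were 25.7 and 24.1 CPM against 35.1 and 33.3 CPM, a difference of -0.46 ± 0.09 (SE; adjusted p = 0.00496, edgeR). None of the 3 overlapped between strains. This adds no support to their calls, since the share of all genes without overlap was not counted. The fnci-1 call was lost without either starved wild-type library, the second starting wild-type library or the second starved cdk12-as library (adjusted p = 0.0669 to 0.216), and with totals without rrn-2.1, no filter or the contrast's libraries alone (adjusted p = 0.0687 to 0.108). With total counts none of the 3 was called, at differences of -0.67 for hrpf-1, -0.63 for mdt-17 and -0.51 for fnci-1 (adjusted p = 0.127 to 0.195). Over all genes tested, total counts lowered the calls from 2865 to 1050. The ratio within a pair was called in 0 of 5 pairs, against 11.3% of all pairs.

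A further 4 h of starvation moved little. In wild type 0 of 10 genes were called by edgeR, against 6.12% of all genes (3.04% rose and 3.07% fell). The most negative changes were those of cln-3.2 at -0.29 ± 0.13 and dhs-1 at -0.28 ± 0.09 (log2 change ± SE). In cdk12-as dcs-1 fell from 13.8 and 12.2 CPM to 10.1 and 9.9 CPM, by 0.38 ± 0.1 on the log2 scale (SE; adjusted p = 0.041, edgeR), 1 of 10 against 5.82% of all genes, of which 2.74% rose and 3.08% fell. That call was lost when any of 12 of the 16 libraries was left out (adjusted p = 0.0534 to 0.327), the exceptions being both wild-type libraries fed with inhibitor, the second starting and the second treated cdk12-as library. A test of the difference between strains gave adjusted p of at least 0.516 for all 10 genes and called 5 genes in all. The ratio was called in 0 of 5 pairs in either strain, against 3.72% of all pairs in wild type and 1.16% in cdk12-as.

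Over the 16 libraries, log2 CPM of the 5 downstream genes moved together, with Pearson r of 0.601 to 0.982 and a median of 0.913 over their 10 combinations. Combinations of upstream genes gave r of -0.432 to 0.635 with a median of 0.296. Within pairs r was 0.726 for set-14/vps-11, 0.418 for hrpf-1/fnci-1, 0.166 for dcs-1/fre-1, 0.108 for prmt-1/mdt-17 and -0.0962 for dhs-1/cln-3.2. These values describe libraries that share groups, and the treated cdk12-as libraries, on which the pairs were chosen, lie at the low end of every downstream gene. The genes most like the mean of the 5 downstream genes were dars-2 (r = 0.994), Y48E1C.2 (0.992), C42C1.4 (0.990), M05D6.2 (0.989) and vps-53 (0.989). They were picked on libraries that include the treated cdk12-as ones, so a low value there was fixed by the choice, and their changes are a description. The log2 changes with inhibitor of these genes were -2.39, -2.46, -1.42, -1.81 and -1.35 in cdk12-as, and 0.13, 0.04, 0.04, 0.02 and 0.18 in wild type. Of these dars-2, the mitochondrial aspartyl-tRNA synthetase gene, ranged from 2.16 to 20.1 CPM, and vps-53, a subunit gene of the GARP tethering complex, from 6.67 to 29 CPM.

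The next tested genes on the same strand, within 10000 bases on either side, were not part of the choice. There were 9 of them, and in fed cdk12-as the inhibitor raised 1 and lowered 1, while 3.77% of all genes rose and 8.37% fell. The gene npp-19, a nuclear pore protein gene 605 bases before set-14, rose by 0.48 ± 0.13 (SE; adjusted p = 0.0298, edgeR), and swsn-1, a SWI/SNF subunit gene 2508 bases beyond mdt-17, fell by 0.53 ± 0.12 (SE; adjusted p = 0.0113, edgeR). The others lay between -0.40 for dnj-4, before dhs-1, and 0.04 for Y113G7A.15, before dcs-1. Beyond fnci-1, the Groucho homolog gene unc-37 had a log2 change of 0.02 ± 0.08 (SE). In wild type the inhibitor changed none of the 9 at an adjusted p under 0.05, and 0% of all genes.

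Listed relatives or pathway partners of fnci-1, prmt-1, mdt-17, vps-11, dcs-1 and cln-3.2 gave mixed counts with inhibitor in fed cdk12-as. These counts are to be set beside the 3.77% of all genes that rose and the 8.37% that fell. No such list covered fre-1, hrpf-1, set-14 or dhs-1. Of 11 tested Fanconi pathway genes other than fnci-1, 6 fell and 0 rose, with a median log2 change of -0.43. Among them were fcd-2, the homolog of the FANCI partner FANCD2, at -1.27 ± 0.08 (SE; adjusted p = 1.06e-06, edgeR) and the nuclease gene xpf-1 at -1.15 ± 0.09 (SE; adjusted p = 2.81e-06, edgeR). Of 5 arginine methyltransferase genes other than prmt-1, 2 fell and 0 rose (median -0.02), with prmt-5 and prmt-7 each lower by 1.09 on the log2 scale. Of 21 Mediator genes other than mdt-17, 5 fell and 3 rose (median -0.21), including mdt-30 at -0.80 ± 0.11 and mdt-21 at -0.81 ± 0.16 (SE). Of 5 HOPS and CORVET genes other than vps-11, 1 fell, vps-16 at -0.83 ± 0.07 (SE; adjusted p = 8.2e-06, edgeR). Of 12 decapping genes other than dcs-1, 4 fell and 0 rose, with a median of 0.14, and neither of 2 CLN3 relatives was called (median -0.6).

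Genes of the machinery that separates and processes transcripts were counted in the same contrast. Of 11 tested genes for proteins of the spliced-leader snRNP, its Sm ring included, 8 rose and 0 fell, with a median log2 change of 0.62. The smallest p belonged to the Sm protein genes snr-7 at 0.80 ± 0.1 and snr-4 at 0.62 ± 0.08 (SE; adjusted p = 9.36e-05 and 0.000186, edgeR). The count does not separate Sm proteins from proteins particular to this snRNP. Of 20 genes of 3′ end formation, 3 rose and 3 fell (median 0.14). Those with the smallest p were xrn-2, a nuclease of transcription termination, at -1.01 ± 0.13 and the cleavage factor gene cpsf-1 at -0.57 ± 0.08 (SE; adjusted p = 0.000141 and 0.000369, edgeR). Of 11 kinase and cyclin genes of the polymerase tail, 3 rose and 0 fell, with cdk-7 at 0.88 ± 0.18 and cic-1 at 0.72 ± 0.17 (SE; adjusted p = 0.00574 and 0.0128, edgeR), and cyclin K (ccnk-1) had 0.18 ± 0.1 (adjusted p = 0.346). In wild type the inhibitor changed no gene of these lists, in which edgeR called 0 genes in all. With food in wild type, where 24.4% of all genes rose and 21.5% fell, 8 of 11 Fanconi genes rose and 1 fell, 13 of 20 genes of 3′ end formation rose and 2 fell, 8 of 12 decapping genes rose and 1 fell, and 9 of 21 Mediator genes rose and 5 fell. In the same contrast 4 of 5 arginine methyltransferase genes and 2 of 2 CLN3 relatives rose and 0 fell, 2 of 5 HOPS and CORVET genes rose and 1 fell, 2 of 11 spliced-leader snRNP genes rose and 2 fell, and 1 of 11 kinase and cyclin genes rose and 2 fell.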

How the data were processed

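The authors deposited whole-number read counts for 24654 genes in 16 libraries, which were analysed as deposited. Per the submitters' processing notes, which give no roles, the tools were Trimmomatic, HISAT2, featureCounts, DESeq2 and deepTools 3.2, and the build was ce10; the strand setting of the gene counts is not given in the sources used here. Special lines of the table entered neither library sizes nor tests (23.65 to 57.06% of a column without feature, 0.83 to 10.7% ambiguous). Gene positions and exon lengths came from a second deposited table, made by featureCounts 1.5.0-p2 per the file header; 32 of its columns, whose codes fit no sample's labels, were left aside.

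Counts were fitted with edgeR 4.0.16 (R 4.3.3): filterByExpr with a minimum count of 10, TMM scaling, 8 group means over all 16 libraries, quasi-likelihood F tests, Benjamini-Hochberg adjustment over 15845 genes, two-sided, called at an adjusted p under 0.05. The fit had 8 residual degrees of freedom, and depth was 18588196 to 56644943 gene counts. Standard errors were derived from the F statistic (log2 change over its square root). Log2 CPM (prior count 2) of the downstream minus the upstream gene was fitted with limma 3.58.1 (trend) over 5857 pairs. The statistics were tested on simulated data. Alternatives were DESeq2 1.42.0, other scalings, no filter, fewer libraries in the fit, a replicate block, other gap limits and a prior count of 0.5.

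The pairs and gene lists were chosen with earlier results of these data known. Named genes are the 10 members, their tested same-strand neighbours within 10000 bases, up to 2 genes a list with the smallest p in the contrast, cdk-12 and ccnk-1, and the 5 genes most correlated with the downstream members.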

Additional observations from a re-analysis of the deposited data

How the results depend on the processing

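Under 7 other settings for genes and 5 for pairs, 150 of 194 values of single genes and pairs kept direction and side of the threshold, 27 lost a call, 13 gained one and 4 changed sign. These are the genes and pairs called as reported or under one of those settings. With 1 library left out, 297 of 352 values of genes and pairs called as reported kept both and 55 lost the call. Counts of calls can stay level while their genes change: with food in wild type, 5 settings call prmt-1 in place of dhs-1. Signs turned with total counts for dhs-1 with food in wild type (-0.12), and for dhs-1 (-0.17) and fre-1 (-0.08) with food and inhibitor, and without rrn-2.1 in the totals for dhs-1 with food (-0.01); total counts moved the median of all genes by -0.37 with food and -0.42 with food and inhibitor. With total counts 2 members were called with food, 2 with food and inhibitor, 0 for further starvation in cdk12-as, 0 for the strain difference at the start and 0 after starvation. Total counts also lowered the calls over all genes, from 7282 to 5015 with food and from 7662 to 5492 with food and inhibitor. Calls fell from 922 to 283 for further starvation in cdk12-as, from 3865 to 1220 at the start and from 2865 to 1050 after starvation. Totals without rrn-2.1 gave 1 call for further starvation in wild type (dhs-1) and 0 in cdk12-as. No filter and a fit of the contrast's libraries alone also gave 0 in cdk12-as. Over all genes, totals without rrn-2.1 called 946 in wild type and 930 in cdk12-as. In cdk12-as no filter called 933 and the contrast's libraries alone 197. That last fit left 0 of 5 pairs called at the start (adjusted p = 0.0836 for dcs-1/fre-1, limma). The causes were not tested, beyond fewer samples in that fit. Leaving out 1 library gave 3 to 5 called members with food, 3 to 6 with food and inhibitor, 0 for further starvation in wild type, 0 to 1 in cdk12-as, 0 to 2 at the start and 2 to 3 after starvation; for pairs, 2 to 3 with food with or without inhibitor and 0 to 1 at the start. How many of all genes were called also differed with the library left out. The median pair change with inhibitor in cdk12-as ran from -1.65 to -1.57.

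Replicate numbers are shared by all groups, but no label ties a number to a culture. Deviations of same-numbered libraries correlated at 0.209 to 0.536 between 12 combinations of groups of one strain and 0.141 to 0.444 between 16 of different strains. A fit with the replicate block called 5 members with food in wild type, prmt-1 (adjusted p = 0.000416) beside the 4 reported, 2 members for further starvation in cdk12-as (dcs-1 and prmt-1), 4 at the start (fnci-1, fre-1, prmt-1 and set-14) and 4 after starvation (prmt-1 beside the 3 reported), and 1 pair, prmt-1/mdt-17, for further starvation in cdk12-as. Over all genes tested the block also raised the calls, from 7282 to 8025 with food in wild type. Calls rose from 922 to 1884 for further starvation in cdk12-as, from 3865 to 5387 at the start and from 2865 to 4062 after starvation. Whether the members gained with the block go beyond this background was not tested. Depth limits the least counted gene to 75 counts in 1 library.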
